A study of Mus musculus with 16 samples.

Results

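The cytochrome P450 families Cyp1 to Cyp4, the UDP-glucuronosyltransferases (Ugt), the cytosolic glutathione S-transferases of the alpha, mu, omega, pi and theta classes (Gst), the sulfotransferases (Sult) and the aldehyde oxidases (Aox) were followed across cells sorted from the mouse olfactory mucosa. Members were taken by gene symbol, with 1 probe set per gene. They came to 135 of the 19505 genes named on the array, namely 80 Cyp, 11 Ugt, 19 Gst, 21 Sult and 4 Aox genes. 3 of the Cyp members are pseudogenes. Genes of the Ugt1a locus, Ugt2a1 and Ugt2a2 were not analysed here.

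RNA was measured on Clariom S arrays, which carry probe sets for well annotated genes, in sorted cells of S100a5-tauGFP mice. In this reporter strain GFP is driven from S100a5, a gene whose RNA in olfactory sensory neurons follows their activity, so the GFP+ gate holds reporter-positive cells and the GFP− gate all other sorted cells. The 4 groups were GFP+ and GFP− cells after 2-octanone, a ketone odorant, and GFP+ and GFP− cells after vehicle, which was filtered air. All 24 mice carried the reporter, were 7 to 12 weeks old and of both sexes, and spent 40 h singly in clean-air chambers at a flow of 3.1 L/min. From 26 h on, odorant or vehicle was given for 10 s every 20 min. Each of 8 pools of 3 mice, 4 per exposure, gave 1 GFP+ and 1 GFP− array, so each group held 4 arrays, and the GFP+ and GFP− array of a pool share their animals. A pool averages its 3 mice, and the labels do not say how males and females were divided among pools.

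These enzymes act in sequence on foreign chemicals. P450s and aldehyde oxidases add or expose a reactive oxygen group, and the transferases then attach glucuronic acid, glutathione or sulfate, which makes the product more soluble and easier to export. The olfactory mucosa is exposed to inhaled chemicals and is among the tissues richest in P450s outside the liver. Sustentacular cells, the supporting cells of the epithelium, and Bowman's glands below it are known for most of that activity, with Cyp2a5 and Cyp2g1 as characteristic nasal forms, while several conjugating enzymes also occur in neurons or immune cells.

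The stretches upstream of 6 members on which the results below turn are shown to place motifs of known regulators of detoxification genes: 5 lower in GFP+ cells, and Cyp2a5 as the best known nasal P450. Each is the 250 bases before the annotated start on the gene's own strand, 5′ to 3′, from RefSeq on GRCm38.p6. Gstp1 lies at chr19:4037913-4038162 (minus strand), Gstp2 at chr19:4042222-4042471 (minus), Sult1c1 at chr17:53990632-53990881 (minus), Gsta3 at chr1:21240335-21240584 (plus), Cyp4f18 at chr8:72009627-72009876 (minus) and Cyp2a5 at chr7:26835089-26835338 (plus). Capitals mark the AP-1 site in the first 3, TGAGTCA or, on the other strand, TGACTCA, TGACNNNGC, the core of the antioxidant element bound by Nrf2, in the next pair, and TTGGCA, a half-site of nuclear factor I proteins, in Cyp2a5.
Gstp1: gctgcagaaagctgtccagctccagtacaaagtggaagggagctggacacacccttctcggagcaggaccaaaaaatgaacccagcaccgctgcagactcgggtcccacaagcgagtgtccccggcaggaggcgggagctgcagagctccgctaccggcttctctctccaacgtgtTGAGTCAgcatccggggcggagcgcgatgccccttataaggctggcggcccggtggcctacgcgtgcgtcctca
Gstp2: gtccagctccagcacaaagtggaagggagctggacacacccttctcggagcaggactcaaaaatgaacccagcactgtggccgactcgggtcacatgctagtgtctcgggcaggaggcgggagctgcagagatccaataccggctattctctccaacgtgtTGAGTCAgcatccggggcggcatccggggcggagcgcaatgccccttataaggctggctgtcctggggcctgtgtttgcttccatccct
Sult1c1: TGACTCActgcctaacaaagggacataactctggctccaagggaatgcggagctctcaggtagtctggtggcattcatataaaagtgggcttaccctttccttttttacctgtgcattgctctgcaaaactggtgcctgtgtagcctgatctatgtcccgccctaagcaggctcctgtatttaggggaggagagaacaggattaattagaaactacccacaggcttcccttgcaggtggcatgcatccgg
Gsta3: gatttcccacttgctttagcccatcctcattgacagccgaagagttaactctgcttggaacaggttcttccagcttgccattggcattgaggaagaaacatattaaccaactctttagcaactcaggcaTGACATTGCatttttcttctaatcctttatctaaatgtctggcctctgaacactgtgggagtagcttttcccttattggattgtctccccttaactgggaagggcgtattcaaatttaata
Cyp4f18: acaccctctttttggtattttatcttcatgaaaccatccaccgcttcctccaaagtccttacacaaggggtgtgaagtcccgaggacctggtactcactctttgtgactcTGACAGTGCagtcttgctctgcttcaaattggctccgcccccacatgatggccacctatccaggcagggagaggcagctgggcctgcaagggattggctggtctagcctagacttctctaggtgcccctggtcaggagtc
Cyp2a5: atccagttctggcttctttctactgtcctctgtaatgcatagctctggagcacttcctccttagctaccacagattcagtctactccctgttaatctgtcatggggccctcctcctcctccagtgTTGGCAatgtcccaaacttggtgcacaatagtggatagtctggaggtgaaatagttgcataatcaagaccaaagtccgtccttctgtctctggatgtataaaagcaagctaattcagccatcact
The table matched 110 of the 135 members, with 127 start windows, and was searched on both strands. The antioxidant core was in 3.94% of member windows and in 10.2% of all 32851 windows, and GCGTG, the core bound by the aryl hydrocarbon receptor, was in 18.9% and 28.2%. The nuclear factor I half-site was in 22.8% of member windows against 12.3% of all, and the AP-1 site, searched after the Gstp sequences had been read, in 9.45% against 4.46%. Some genes counted here, such as Cyp3a25 and Cyp2j13, have overlapping windows that each hold the half-site. Cyp3a59 holds it at the same positions as a Cyp3a25 window, so windows are not independent. The windows of Gstp1 and Gstp2 were identical at 208 of 265 aligned positions (78.5%), and both hold the AP-1 site next to the same bases. Gstp3 matched Gstp1 at 50.7% and Gstp2 at 51.9% of aligned positions and holds no AP-1 site. None of these Gstp windows holds the antioxidant core. Every window printed above was one with a match. Those of Gsto1 and Sult1e1, also lower in GFP+ cells, held none of these motifs. A match describes these letters and shows no binding.

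Array medians over gene probe sets lay between 7.64 and 8.01 on the log2 scale, in which the authors' signals are given throughout, and arrays of a group correlated at 0.982 to 0.995. S100a5 itself read 16.47 to 16.98 on the GFP+ arrays of replicates 1 to 3 of both exposures, but 13.92 and 13.22 on those of replicate 4. In the GFP− cells it read 15.45 to 15.81 in replicates 1 to 3 and 13.55 and 13.11 in replicate 4. Eif2s3y, on the Y chromosome, was between 3.48 and 5.31 in the pools numbered 1 and between 11.05 and 12.63 elsewhere. Background control probe sets averaged 5.4 to 5.61, so RNA of this gene was not read above background in the replicate 1 pools. The replicate 4 pools, and the replicate 1 pools that differ from the rest in this sex-linked gene, were therefore each left out together in further fits, and so were the replicate 3 pools, whose GFP+ arrays read low for the nasal P450 genes. Mature neuron genes averaged 17.25 to 17.41 in GFP+ and 16.61 to 17.26 in GFP− cells over a list of 10, so both fractions held neuronal RNA. In sorted bulk samples, fewer cells of a type and less RNA per cell cannot be told apart.

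Most members read low on these arrays. An array's background bound was taken as the 95th percentile of its 23 background control probe sets, which lay between 7.61 and 8.18, and 19 members were above it on all 16 arrays, 12 on some and 104 on none. The bound is strict, since single background sets averaged from 2.7 to 8.34 and the means of all 23 were 5.4 to 5.61. No fold change is given for a member below the bound in both fractions. Where some or all GFP+ arrays were below it and all or most GFP− arrays above, the fold is given as a lower limit, with each GFP+ value below its array's bound set to that bound.

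Setting GFP+ against GFP− cells asks which of these enzymes separate reporter-positive cells from the rest of the mucosa. GFP+ cells held less RNA of the pi-class transferases Gstp1 and Gstp2, of Gsto1, Gsta3, Sult1e1 and Sult1c1 and of the leukotriene hydroxylase gene Cyp4f18. They held more of Cyp2u1 and Cyp2s1, and the nasal P450 genes Cyp2g1, Cyp2a5, Cyp2a4, Cyp2f2 and Cyp1a2 did not pass the test. Over both exposures limma called 34 of the 135 members (25.2%) at an adjusted p under 0.05, 17 higher and 17 lower in GFP+ cells, against 30.7% of all 19572 gene probe sets, 16.7% higher and 14.0% lower. The members' share was thus near or below that of all genes. Of the 17 higher, 14 were below the background bound in both fractions, and of the 17 lower, 8 were. The count of higher members varied with the pools: it was 5 without octanone replicate 1, 8 without vehicle replicate 1, 10 without octanone replicate 2 or 3, 3 without both replicate 1 pools, 10 without both replicate 3 pools and 14 without both replicate 4 pools. The counts of lower members in those 3 joint fits were 16, 13 and 14. When each array was centred on its median, which moves every difference up by the same amount, 91 members were called higher and 12 lower. That shift put the median of all genes at 0.41 in place of 0.13. The share of all genes called was not counted with arrays centred or pools left out. Those counts are therefore not read as a result about the members.

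By family, the glutathione S-transferases stood lowest. Their 19 members had a median difference of −0.29, with 1 called higher and 8 lower, beside a median of 0.13 over all genes. For these and the counts that follow, 16.7% of all genes were called higher and 14.0% lower. The 80 Cyp members had a median of 0.18, with 12 higher and 3 lower, the 11 Ugt members 0.25, with 2 higher and 1 lower, the 21 Sult members 0.20, with 2 higher and 4 lower, and the 4 Aox members 0.21, with none higher and 1 lower. Over the 8 pools these family medians varied with an SD of 0.16 for Gst, 0.10 for Cyp, 0.05 for Ugt, 0.10 for Sult and 0.16 for Aox. With the arrays centred, the Gst median was −0.01 and that of Cyp 0.46. Differences between families were not tested, and the families also differed in signal level. Below the bound on every array were 9 of 19 Gst, 64 of 80 Cyp, 11 of 11 Ugt, 17 of 21 Sult and 3 of 4 Aox members. Among members whose mean was above the bound, 2 of 26 were higher and 6 lower (30.8% called, beside 34.7% of all genes at that level). Below it, 15 of 109 were higher and 11 lower (23.9%, beside 26.7%). The members' median difference was −0.06 above the bound and 0.19 below it, beside 0.13 at both levels for all genes. The part of signal level in the family medians was not tested.

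**Figure D1:**
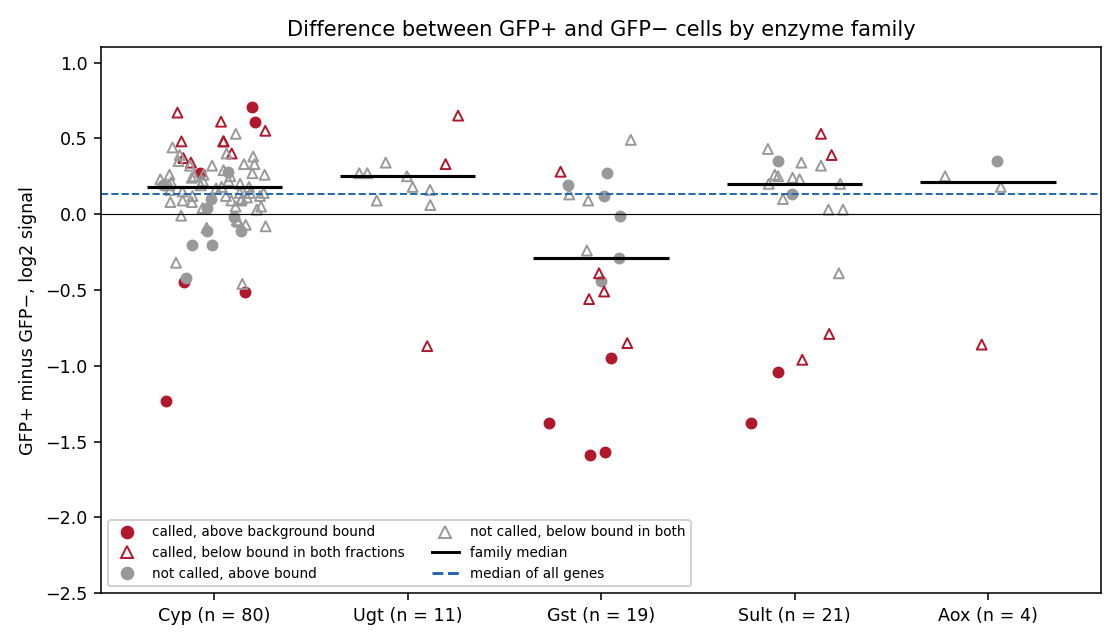
The difference between GFP+ and GFP− cells (log2 signal, mean over both exposures) is plotted for each of the 135 members by family. Red marks members called by limma, triangles those below the background bound in both fractions, black lines the family medians and the dashed line the median of all genes. The called Gst members lie mostly below 0, down to −1.59 for Gstp1, and the called Cyp members mostly above it and below the bound.

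Among the glutathione S-transferases all 3 pi-class members were called lower, of which Gstp3 was below the bound in both fractions. Gstp1, which conjugates electrophiles with glutathione, read 7.22, 7.17, 7.23 and 7.71 under 2-octanone and 7.92, 8.22, 7.42 and 7.65 under vehicle in GFP+ cells, against 9.09, 9.18, 8.7 and 8.54 under 2-octanone and 9.52, 9.44, 8.7 and 10.09 under vehicle in GFP− cells. Gstp2, its close copy, read 6.41, 6.52, 6.5 and 6.87 under 2-octanone and 7.42, 7.69, 6.76 and 7.4 under vehicle in GFP+ cells, against 8.21, 8.42, 8.05 and 7.64 under 2-octanone and 8.79, 8.47, 7.91 and 9.08 under vehicle in GFP− cells. For Gstp1 every GFP+ array lay below every GFP− array, and for both genes GFP+ was lower in each of the 8 pools. Gstp1 averaged 7.57 ± 0.38 in GFP+ and 9.16 ± 0.52 in GFP− cells (SD, n = 8 arrays each), a difference of −1.59 (SE 0.18, limma adjusted p = 2.67e-06). Since 1 of its 8 GFP+ arrays was above the background bound, the fold is a lower limit, at least 2.26-fold lower. Gstp2 was below the background bound on all GFP+ arrays and at least 1.31-fold lower there, with a fitted difference of −1.38 (SE 0.17). The pair are near-identical copies, and whether each probe set also reads the other's RNA was not tested. Gstp3 averaged 4.77 ± 0.30 in GFP+ and 5.28 ± 0.28 in GFP− cells, below the bound in both (adjusted p = 0.016). Its call was lost with arrays centred (0.163) and without octanone replicate 2 (0.0583), octanone replicate 3 (0.065) or vehicle replicate 1 (0.0604).

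Gsto1, an omega-class enzyme that reduces rather than conjugates many of its substrates, read 6.79, 7.13, 6.6 and 7.59 under 2-octanone and 7.86, 6.9, 6.13 and 6.63 under vehicle in GFP+ cells. In GFP− cells it read 8.51, 9.01, 8.2 and 8.08 under 2-octanone and 8.6, 8.69, 8.1 and 8.99 under vehicle. The fractions did not overlap, and with all GFP+ arrays below the bound Gsto1 was at least 1.51-fold lower. Gsta3, of the alpha class, read 7.68, 7.97, 7.7 and 8.31 under 2-octanone and 8.28, 7.98, 7.19 and 8.61 under vehicle in GFP+ cells, against 8.17, 9.45, 8.66 and 8.82 under 2-octanone and 8.57, 9.35, 8.67 and 9.61 under vehicle in GFP− cells. These ranges overlapped, although GFP+ was lower in all 8 pools, and the difference was −0.95 (SE 0.22, adjusted p = 0.00412). With 5 of 8 GFP+ arrays above the bound Gsta3 was at least 1.71-fold lower. Gsta4 averaged 8.26 and 8.27 (adjusted p = 0.97), so the alpha class did not move as a whole.

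The mu class, the most strongly read Gst group by its number of members above the bound on every array (4 of 7), showed no common direction. Gstm1 averaged 14.09 ± 0.76 in GFP+ and 14.38 ± 0.50 in GFP− cells (adjusted p = 0.455), and Gstm2 10.00 ± 0.57 and 9.88 ± 0.51 (adjusted p = 0.734). The called members were Gstm6, higher (adjusted p = 0.0413), and Gstm7, lower (adjusted p = 0.0484), both below the bound on every array. Gstm6 was called in 9 of 19 alternatives (adjusted p up to 0.208) and missed the threshold without octanone replicate 1 or 3 or any single vehicle pool. Gstm7 was called in 6 of 19 (adjusted p up to 0.46) and missed it with arrays centred, after quantile normalisation (0.263) and without octanone replicate 1, 2 or 4 or vehicle replicate 1, 2 or 3. Of the theta class, Gstt2 averaged 4.13 ± 0.34 in GFP+ and 4.99 ± 0.26 in GFP− cells (adjusted p = 0.000316) and Gstt3 5.66 ± 0.33 and 6.23 ± 0.38 (adjusted p = 0.0162), all below the bound. Gstm5 averaged 8.82 ± 0.22 in GFP+ and 9.27 ± 0.50 in GFP− cells, and was called in the fit blocked by pool (adjusted p = 0.0319) but not in the main fit (0.0857).

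The sulfotransferases, which transfer sulfate from an activated donor, divided by gene. Sult1c1, of a subfamily that sulfates phenols, read 10.98, 11.38, 10.19 and 11.19 under 2-octanone and 11.96, 11.3, 10.79 and 11.71 under vehicle in GFP+ cells, against 11.22, 13.05, 11.66 and 12.73 under 2-octanone and 12.1, 12.17, 12.07 and 12.82 under vehicle in GFP− cells. Sult1e1, the estrogen sulfotransferase, read 7.31, 6.63, 6.86 and 7.33 under 2-octanone and 7.04, 7.2, 6.42 and 7.41 under vehicle in GFP+ cells, against 7.78, 9.23, 7.48 and 8.62 under 2-octanone and 8, 8.57, 8.14 and 9.42 under vehicle in GFP− cells. GFP+ was lower in all 8 pools for both, and the arrays of Sult1e1 did not overlap. Sult1c1 differed by −1.04 (SE 0.26, adjusted p = 0.0067), 2.05-fold lower, and Sult1e1, below the bound on all GFP+ arrays, was at least 1.39-fold lower (adjusted p = 0.000583). The weakly read Sult2b1, a sulfotransferase of cholesterol, and Sult6b1 were also called lower, at adjusted p = 0.00026 and 0.0002.

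The sulfotransferases with the strongest signals did not share that direction. Sult1d1, which sulfates catecholamines, read 17.7 to 17.83 on GFP+ and 17.17 to 17.83 on GFP− arrays, near 18.99, the highest value on any array. It was not called (0.13, SE 0.09, adjusted p = 0.259). Sult4a1, a brain sulfotransferase whose substrate is not established, read 14.33, 14.17, 14.22 and 14.03 under 2-octanone and 14.15, 14.08, 14.23 and 13.79 under vehicle in GFP+ cells, against 14.06, 13.81, 14.11 and 13.22 under 2-octanone and 13.86, 13.89, 13.9 and 13.39 under vehicle in GFP− cells. GFP+ was higher in each of the 8 pools by 0.35 on average (SE 0.13), which missed the threshold (adjusted p = 0.0556) and passed it with the pool as a block (0.0153).

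**Figure D2:**
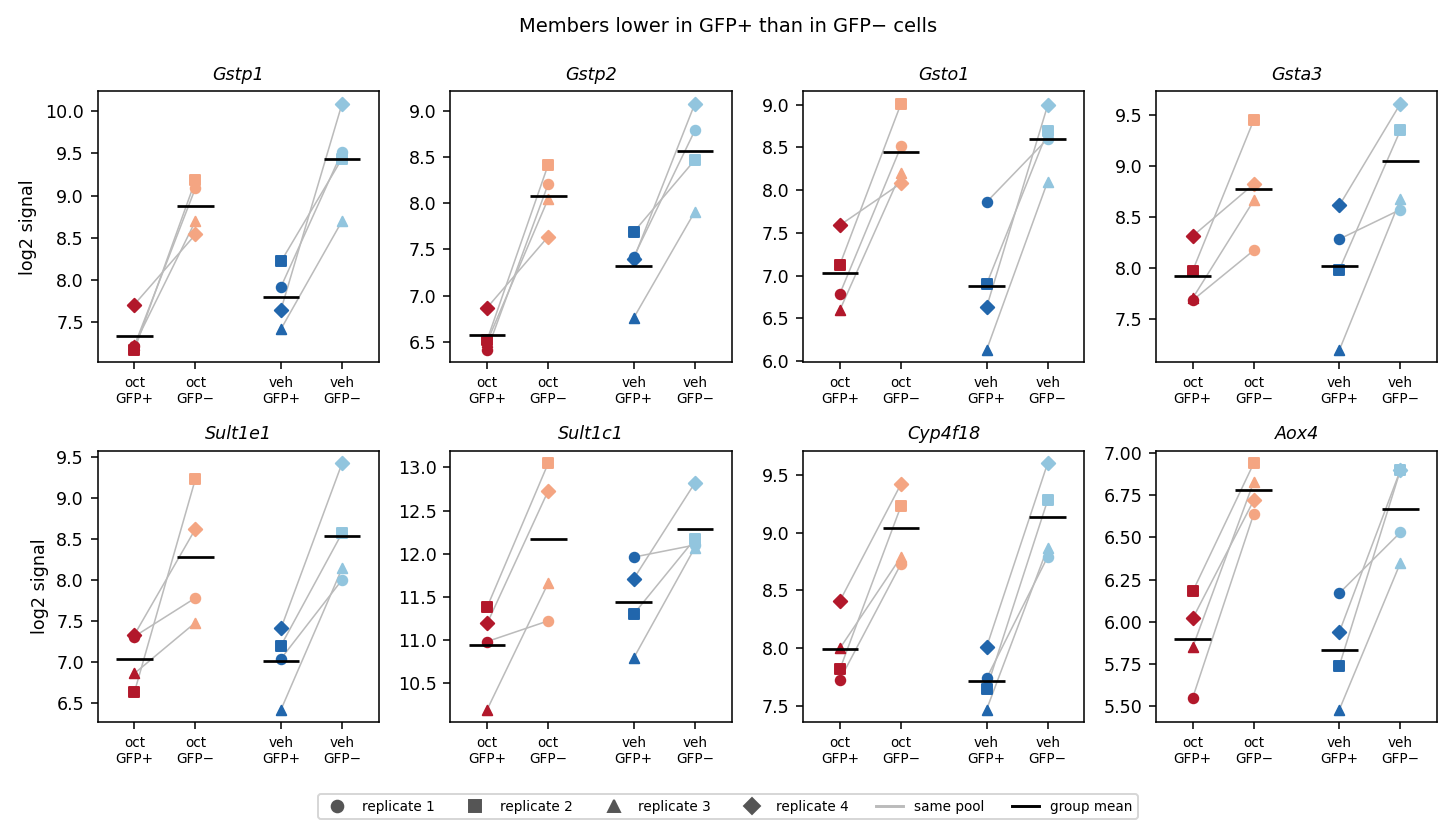
Signals (log2) of 8 members called lower in GFP+ cells are plotted for every array, by group, with grey lines joining the fractions of a pool and black bars at group means. GFP+ arrays lie below the GFP− arrays of the same pool throughout, and the oct and veh panels overlap within a fraction for most genes.

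Of the P450s, Cyp4f18, which inactivates leukotriene B4 in mouse neutrophils, was lower in GFP+ cells in each pool. It read 7.73, 7.82, 8 and 8.41 under 2-octanone and 7.74, 7.65, 7.47 and 8.01 under vehicle in GFP+ cells, against 8.73, 9.23, 8.79 and 9.42 under 2-octanone and 8.79, 9.28, 8.87 and 9.6 under vehicle in GFP− cells. The arrays did not overlap, and the difference was −1.23 (SE 0.15, adjusted p = 6.58e-06). With 3 of 8 GFP+ arrays above the bound it was at least 2.06-fold lower. Cyp4f16, of the same fatty acid hydroxylase subfamily, was called lower by limma (−0.51, SE 0.16, adjusted p = 0.0224), and Cyp2j12, of a subfamily that epoxidizes arachidonic acid, as well (−0.45, SE 0.14, adjusted p = 0.022). With arrays centred neither passed, at adjusted p = 0.182 for Cyp4f16 and 0.256 for Cyp2j12. Cyp4f16 also missed the threshold without octanone replicate 1 or 2, vehicle replicate 3 or 4 (0.0509 to 0.0898), both replicate 3 pools (0.0512) or both replicate 4 pools (0.122), after quantile normalisation (0.125) and with array weights (0.0561). Cyp2j12 missed it without octanone replicate 1, 2 or 3 or vehicle replicate 1 or 3 (0.0578 to 0.0633), both replicate 1 pools (0.126) or both replicate 3 pools (0.14).

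Cyp2u1 and Cyp2s1 were the called P450s with higher signal in GFP+ cells that lay above the bound on every array. Cyp2u1, a hydroxylase of long-chain fatty acids known from brain, read 12.13, 11.65, 11.48 and 11.39 under 2-octanone and 11.66, 11.56, 11.75 and 11.25 under vehicle in GFP+ cells, against 11.2, 10.85, 11.59 and 10.07 under 2-octanone and 11.03, 11.05, 11.01 and 10.37 under vehicle in GFP− cells. Cyp2s1, a P450 of epithelia outside the liver and a known target of the aryl hydrocarbon receptor, read 14.04, 13.36, 13.7 and 13.28 under 2-octanone and 13.45, 13.71, 13.71 and 12.96 under vehicle in GFP+ cells, against 13.34, 12.78, 13.13 and 12.3 under 2-octanone and 13.22, 13.23, 13.21 and 12.14 under vehicle in GFP− cells. GFP+ was higher in 7 of 8 pools for Cyp2u1, the exception being octanone replicate 3, and in 8 of 8 for Cyp2s1. The differences were 0.71 (SE 0.19, adjusted p = 0.00878) and 0.61 (SE 0.20, adjusted p = 0.0275), 1.64-fold and 1.52-fold higher. Both genes were lowest on the replicate 4 GFP− arrays of both exposures, and without those pools the differences were 0.58 and 0.51, still called. Cyp2s1 missed the threshold without octanone replicate 2 (0.0554) or 3 (0.0506), without vehicle replicate 2 (0.0521) or 3 (0.0531), and when the replicate 1 pools of both exposures (0.0565) or the replicate 3 pools of both (0.0891) were left out. The third called member above the bound on any array, Cyp4f37, averaged 7.52 ± 0.24 in GFP+ and 7.24 ± 0.18 in GFP− cells (adjusted p = 0.0477).

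The other higher P450 calls were in genes read below the bound in both fractions. Cyp2b10, a target of the receptor CAR, averaged 6.97 ± 0.46 in GFP+ and 6.30 ± 0.32 in GFP− cells (adjusted p = 0.0144), and missed the threshold without octanone replicate 1 (0.0599), vehicle replicate 3 (0.051), both replicate 1 pools (0.0631) or both replicate 3 pools (0.0735). Cyp3a44 averaged 5.52 ± 0.39 and 4.92 ± 0.53, and Cyp4f15 6.32 ± 0.48 and 5.78 ± 0.27. Cyp2c37, Cyp2c40, Cyp2a12, Cyp4a10 and the pseudogenes Cyp2d37-ps and Cyp4f41-ps made up the rest. At such levels a signal cannot be told from background, and the level itself is not read as expression.

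The nasal P450s were strongly read and varied widely between arrays of a group. Cyp2g1, a P450 found almost only in olfactory mucosa, read 15.28, 15.51, 14.33 and 14.5 under 2-octanone and 15.83, 15.78, 14.29 and 15.84 under vehicle in GFP+ cells, against 14.39, 15.86, 14.9 and 15.7 under 2-octanone and 15.21, 15.56, 15.09 and 15.52 under vehicle in GFP− cells. Cyp2a5, which oxidizes coumarin and nicotine, read 14.64, 15.3, 13.47 and 14.09 under 2-octanone and 15.25, 15.22, 13.48 and 15.33 under vehicle in GFP+ cells, against 13.88, 15.8, 14.21 and 15.3 under 2-octanone and 14.56, 15.02, 14.25 and 15.29 under vehicle in GFP− cells. Both were low on the replicate 3 GFP+ arrays of both exposures, and the fractions overlapped. The difference was −0.11 for Cyp2g1 (SE 0.27, adjusted p = 0.775) and −0.20 for Cyp2a5 (SE 0.34, adjusted p = 0.686). GFP+ was higher in 4 of 8 pools for each, and they were the same pools: octanone replicate 1 and vehicle replicates 1, 2 and 4.

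The other nasal enzymes followed the same arrays. Cyp2a4, a near-identical copy of Cyp2a5 whose probe set may share its RNA, differed by −0.11 (SE 0.35), Cyp2f2, which activates naphthalene, by −0.20 (SE 0.30), Cyp1a2, which oxidizes aromatic amines, by −0.42 (SE 0.26), and Gstm1 by −0.29 (SE 0.29), and none was called. Around their group means the arrays varied with an SD of 0.79 for Cyp2a4, 0.78 for Cyp2a5, 0.69 for Cyp2f2, 0.65 for Gstm1, 0.60 for Cyp2g1 and 0.59 for Cyp1a2, beside a median of 0.26 over all genes. On the replicate 3 GFP+ arrays Cyp2f2 read 11.96 after 2-octanone and 12.41 after vehicle, against 12.4 to 14.06 on the other GFP+ arrays. The sustentacular list was low on those arrays too. The mean of its 11 named genes was 7.85 and 7.99 there and 8.46 to 8.93 on the other GFP+ arrays. The Bowman's gland list read 8.62 and 8.86 there and 9.17 to 11.13 on the others. On the octanone GFP+ array of replicate 4, Cyp2f2 was low at 12.4 and Cyp1a2 at 8.47. The lists were not low on it, at 8.57 for sustentacular and 9.66 for Bowman's gland genes. Over the fractions, 1 sustentacular gene was higher and 5 lower in GFP+ cells, so that list was split. The higher gene was Muc2 (0.79), and the lower ones included Cdh1 (−2.52), Krt18 (−2.35), Krt8 (−1.94) and Notch2 (−0.85). Sec14l3 (0.39), Cbr2 (0.34), Ermn (0.04), Hes1 (−0.13) and Reg3g (−0.28) were not called. Of the 10 Bowman's gland genes Sox9 alone was called, lower. The part of sustentacular and Bowman's gland cells in the nasal enzyme values was not tested. Without both replicate 3 pools the difference of Cyp2g1 was 0.08 and that of Cyp2a5 −0.01.

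**Figure D3:**
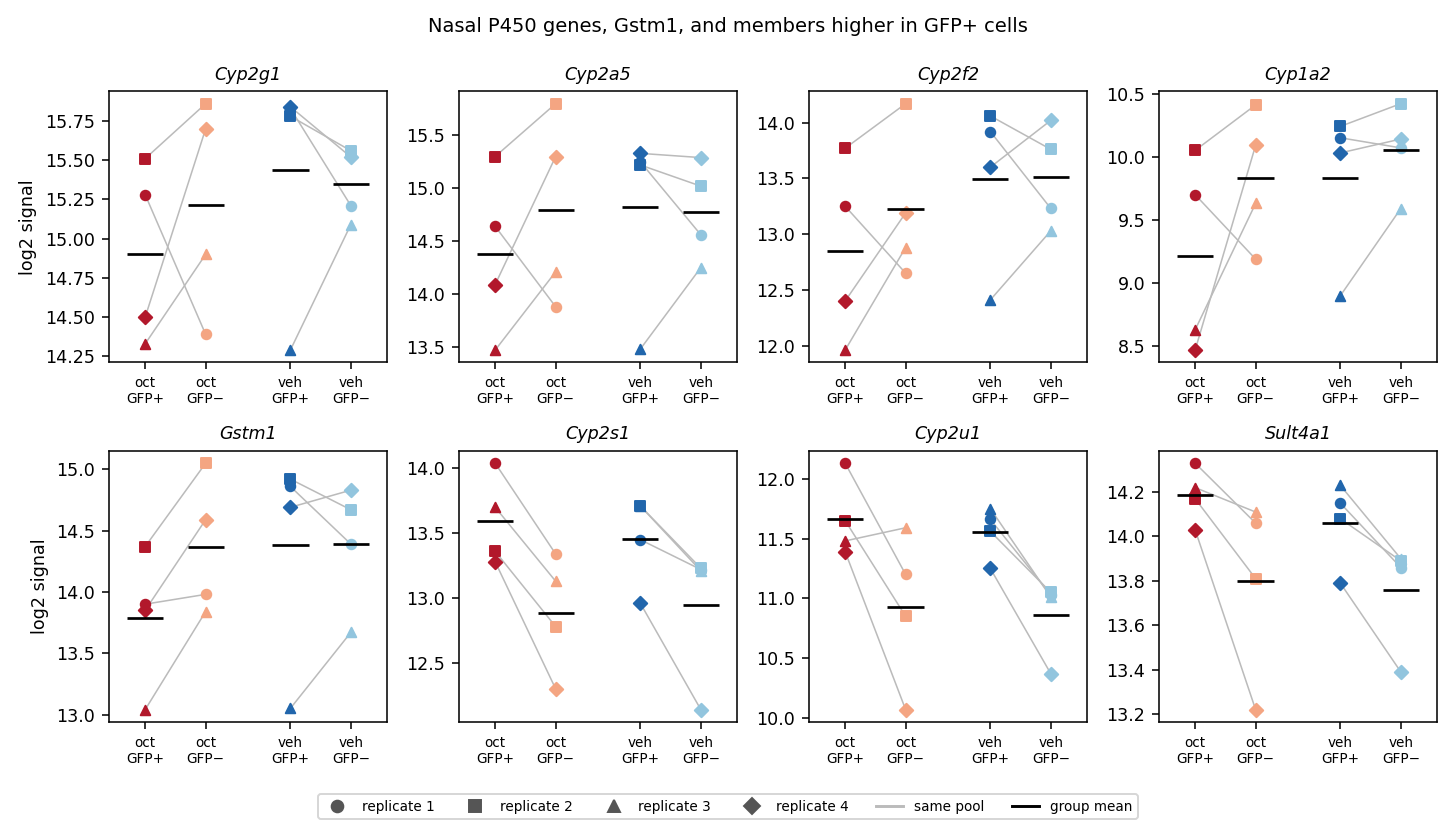
Signals (log2) of the nasal P450 genes, Gstm1 and the strongly read members higher in GFP+ cells are plotted for every array, by group, with grey lines joining the fractions of a pool and black bars at group means. The replicate 3 GFP+ arrays (triangles) are the lowest or among the lowest for the first 5 genes, and the replicate 4 GFP− arrays (diamonds) are the lowest for Cyp2s1, Cyp2u1 and Sult4a1.

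No Ugt member was above the bound on any array, but the Ugt1a genes, Ugt2a1 and Ugt2a2 were not among the members. Ugt2b36, of a subfamily that glucuronidates steroids, averaged 6.71 ± 0.26 in GFP+ and 6.06 ± 0.34 in GFP− cells and was called higher (adjusted p = 0.00125), as was Ugt2b35 (5.04 ± 0.21 and 4.71 ± 0.23, adjusted p = 0.0211). Ugt8a, which makes the myelin lipid galactosylceramide rather than clearing foreign chemicals, averaged 5.72 ± 0.44 in GFP+ and 6.58 ± 0.33 in GFP− cells and was called lower (adjusted p = 0.00186). Among the aldehyde oxidases, Aox4 averaged 5.87 ± 0.26 in GFP+ and 6.72 ± 0.21 in GFP− cells, below the bound, with no overlap of the arrays (adjusted p = 4.89e-05). Aox2, the form known from Bowman's glands, averaged 7.75 ± 0.49 and 7.40 ± 0.36, and GFP+ was higher in 7 of 8 pools. It was not called (adjusted p = 0.21), and was called with the pool as a block (0.0342) and with arrays centred (0.0116).

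Fitted with each pool as a block, since its fractions share their mice, limma called 23 members higher and 19 lower, against 36.0% of all genes. This added Cyp2c68, Cyp3a16, Cyp4b1, Sult2a4, Ugt2a3 and Ugt3a2 besides Aox2 and Sult4a1 to the higher members and Sult1a1 besides Gstm5 to the lower, and took away Cyp2c40 and Cyp2d37-ps. Aox4, Cyp4f18, Gsto1, Gstp1, Sult1e1, Sult2b1 and Sult6b1 were the 7 members whose GFP+ arrays all lay below all GFP− arrays, beside 8.25% of all genes, and no member had all GFP+ arrays above, beside 3.18% of all genes. Within exposures, 2 members were called higher after 2-octanone, beside 5.29% of all genes, and 10 lower, beside 9.80% (15.1% in either direction). After vehicle 3 were higher, beside 7.54% of all genes, and 13 lower, beside 11.0% (18.6% in either direction). Without octanone replicate 2 the count after 2-octanone was 7 in all. No member's GFP+ to GFP− ratio was called as changed by the exposure (0% of all genes).

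Markers of several other cell types were lower in GFP+ cells too. Beside the counts below, 14.0% of all genes were called lower and 16.7% higher. The 10 neutrophil genes averaged 6.71 to 12.45 on GFP+ arrays and 14.39 to 15.99 on GFP− arrays, and all 10 were called lower in GFP+ cells. 7 of the 8 microvillar genes (6.44 to 7.25 on GFP+ and 8.40 to 9.34 on GFP− arrays), 5 of 7 immature neuron genes (10.19 to 10.68 and 11.88 to 13.11), 4 of 5 globose basal genes (7.27 to 7.71 and 8.73 to 9.50) and all 3 erythroid genes (8.13 to 8.47 and 9.63 to 11.55) were lower too. So were 3 of 7 macrophage genes and all 6 lymphocyte genes. Among endothelial genes 2 of 5 were lower, among horizontal basal genes 1 of 7, among ensheathing glia genes 1 of 4 and among fibroblast genes 0 of 5. None of the genes in those 4 lists was called higher. Most of them were below the bound on every array: 5 of 5 endothelial, 6 of 7 horizontal basal, 3 of 4 ensheathing glia and 3 of 5 fibroblast genes. So were 3 of 6 lymphocyte, 2 of 5 globose basal, 1 of 8 microvillar and 2 of 6 ciliated respiratory genes. Higher in GFP+ cells were all 6 ciliated respiratory genes (9.99 to 10.46 on GFP+ and 9.62 to 9.85 on GFP− arrays) and 5 of 10 mature neuron genes. The highest neutrophil means in GFP+ cells were 12.45 on octanone replicate 4 and 9.67 on octanone replicate 3. Among the 2-octanone GFP+ arrays, replicate 4 gave the highest value of Gstp1, Gstp2, Gsto1 and Cyp4f18, but replicate 3 the lowest of Gsto1. Vehicle replicate 4, whose neutrophil mean of 8.19 was the highest of the vehicle GFP+ arrays, was highest there for Cyp4f18 but not for Gstp1, Gstp2 or Gsto1. The part of these cells in the higher members and in the differences of Gstp1, Gstp2, Gsto1, Gsta3, Sult1e1, Sult1c1 and Cyp4f18 was not tested. Without both replicate 4 pools Gstp1 differed by −1.57, Gsto1 by −1.61 and Cyp4f18 by −1.21, all called. In the pools kept, the neutrophil list still averaged 6.71 to 9.67 on GFP+ and 14.39 to 15.39 on GFP− arrays. That fit therefore cannot address the part of these cells.

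The exposure comparison asks whether intermittent 2-octanone changed the enzymes' RNA in either fraction. No member was called in GFP+ cells, where no gene of 19572 was (0%), nor in GFP− cells, where 1 gene was (0.00511%). At an unadjusted p under 0.05, limma had 5 members in GFP+ cells, all lower (3.70%, beside 3.16% of all genes), 10 in GFP− cells, 5 higher and 5 lower (7.41%, beside 2.44%), and 5 for the change of the ratio (3.70%, beside 2.38%). Fitted differences lay between −0.74 and 0.54 in GFP+ and between −0.59 and 0.63 in GFP− cells, with SEs up to 0.49, and every member's adjusted p was 1. A p above the threshold does not show that a member did not differ.

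The smallest unadjusted p of a member in GFP+ cells was that of Gstp2 (0.0077). Its arrays read 6.41 to 6.87 after 2-octanone and 6.76 to 7.69 after vehicle, below the bound in both, so no size is read from them, and vehicle replicate 3 lay inside the odorant range. In GFP− cells Gstp2 averaged 8.08 ± 0.33 after 2-octanone and 8.56 ± 0.50 after vehicle (SD, n = 4), a difference of −0.48 (SE 0.24). Gstp1 was lower after 2-octanone by 0.47 in GFP+ and by 0.56 in GFP− cells, with SE 0.25 in each, and was not called in either. In GFP+ cells 1 of its 8 arrays was above the bound. Among weakly read members, those with the smallest p in GFP+ cells were Ugt2a3 and Cyp4f37 on the lower side and Ugt2b35, Cyp2e1 and Sult1c2 on the higher. In GFP− cells they were Cyp4f39, Cyp2d37-ps and Cyp4a30b (higher) and Sult2a6 and Cyp3a44 (lower), and for the ratio Cyp2w1, Sult1c2 and Cyp4f14 (higher) and Cyp2c69, Cyp4a30b and Ugt2b36 (lower).

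The nasal P450s and their usual inducible relatives gave no call either. In GFP+ cells Cyp2g1 averaged 14.90 ± 0.58 after 2-octanone and 15.43 ± 0.76 after vehicle, a difference of −0.53 (SE 0.38). Cyp2a5 differed by −0.45 (SE 0.48), Cyp2f2 by −0.65 (SE 0.43), Cyp1a2 by −0.62 (SE 0.37) and Gstm1 by −0.59 (SE 0.40). In GFP− cells the same genes differed by −0.13, 0.01, −0.29, −0.23 and −0.03. In GFP+ cells replicates 3 and 4 were the low arrays after 2-octanone and replicate 3 alone after vehicle, and the groups overlapped for each. Same-numbered GFP+ arrays of both exposures deviated together, so they were also compared within numbers. Cyp2f2 was lower after 2-octanone in each of the 4 pairs, with differences of −0.67, −0.29, −0.45 and −1.2, as were Cyp1a2 (−0.45, −0.19, −0.27 and −1.56) and Gstm1 (−0.96, −0.55, −0.02 and −0.84). Cyp2g1 was lower in 3 of 4. In all, 13 members were lower in each pair, beside 6.37% of all genes, and 6 higher, beside 6.40%. With the replicate number as a block no member was called in GFP+ cells (0% of all genes), and the adjusted p of Cyp2f2 was 0.928. Cyp1a1 and Cyp1b1, classic targets of the aryl hydrocarbon receptor, stayed below the bound in every group.

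**Figure D4:**
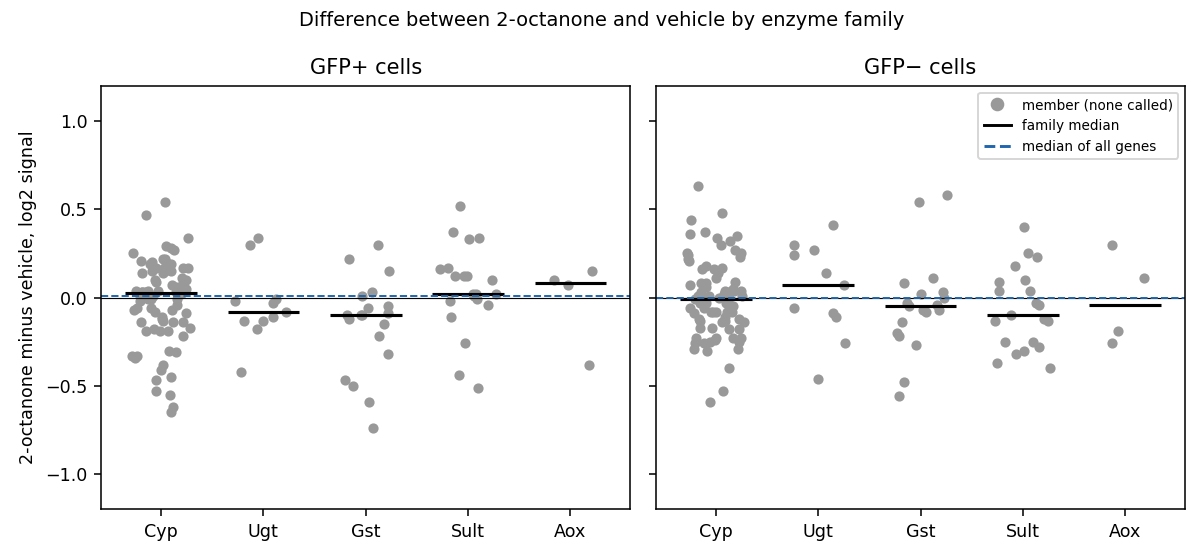
The difference between 2-octanone and vehicle (log2 signal) is plotted for each of the 135 members by family, in GFP+ cells on the left and GFP− cells on the right, with black lines at the family medians and the dashed line at the median of all genes. Members scatter around 0 in both fractions, between −0.74 and 0.63, and none was called.

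Among other genes of the same pathways, 72 of 77 listed were named on the array, with 7 higher and 15 lower in GFP+ cells, beside 16.7% and 14.0% of all genes, and a median difference of 0.02. The lower ones were led by the microsomal glutathione transferase gene Mgst1, which averaged 10.24 ± 0.78 in GFP+ and 12.85 ± 0.86 in GFP− cells (−2.61, SE 0.38, adjusted p = 5.44e-05), and by the mitochondrial aldehyde dehydrogenase gene Aldh2, at 12.70 ± 0.69 and 15.07 ± 0.49 (−2.37, SE 0.28, adjusted p = 5.67e-06). Gsr, which regenerates glutathione, differed by −1.60 (SE 0.22), Mgst2 by −1.36, Nqo2 by −1.02 and Gclc, the rate-limiting enzyme of glutathione synthesis, by −0.30. In all, 4 of 11 genes of cofactor supply and 4 of 12 of other conjugation were lower. The higher ones included the microsomal epoxide hydrolase gene Ephx1 (0.59, SE 0.15, adjusted p = 0.00566), the P450 partner gene Cyb5r1 (0.37) and, of 10 sensors, Nfe2l2, which encodes Nrf2 (0.56, SE 0.19, adjusted p = 0.0377), and Rxra (0.34). The number of higher genes was 1 without octanone replicate 3 or vehicle replicate 1, 2 without vehicle replicate 3, 3 without replicate 4 of either exposure, 4 without vehicle replicate 2, 1 without both replicate 1 or both replicate 3 pools and 4 without both replicate 4 pools. Nqo1, a standard Nrf2 target, averaged 15.66 ± 0.10 and 15.68 ± 0.16 and was not called, and neither was the sensor gene Ahr (0.38, SE 0.18, adjusted p = 0.119). No listed pathway gene was called for 2-octanone.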

How the data were processed

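Clariom S arrays measured RNA of GFP+ and GFP− cells sorted from 8 pools of 3 mice, 16 arrays in all, with 50 to 100 ng of total RNA per array per the labels. The authors deposited 1 signal per probe set and array, made with Affymetrix Expression Console per the submitters' processing notes. The deposited values were read as log2 signals from their range (2.13 to 18.99), since the log base and normalisation are not given in the sources used here. Of 28846 probe sets, 6640 were controls, 2634 named no gene, and 19572 named 1 gene, all with an Entrez identifier in the RefSeq table. Each of the 135 members had 1 probe set.

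All 16 arrays were fitted on 4 group means with limma 3.58.1 under R 4.3.3 (two-sided, by lmFit and eBayes, 12 residual and 4.19 prior degrees of freedom), and p-values were adjusted by Benjamini and Hochberg over the 19572 probe sets, with calls under 0.05. The 6 comparisons were GFP+ minus GFP− over both exposures and within each, 2-octanone minus vehicle in GFP+ and in GFP− cells, and the change that 2-octanone made in the ratio of the fractions. Replicates are pools of separate mice. The number of arrays limits the precision. Simulated data with changes of set size were used to test the fit. Members, gene lists and motifs were chosen with earlier results of these data known, and so was the rule for named genes: the 10 called members with the largest difference in each direction, the 3 with the smallest p in each direction of the exposure comparisons, the 2 with the highest mean per subfamily, and enzymes known from other tissue work. Only some of these are named, and arrays, pools and the pathway genes given singly were picked after their values were seen.

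The fractions of each pool share their mice, which pairs them in the sort. Residuals of the fractions correlated across genes at 0 to 0.46 within pools. Between exposures, same-numbered replicates correlated at 0.17 to 0.43 in GFP+ cells, each over 0.1, and were taken as paired there, although the labels do not say what the number marks. In GFP− cells they correlated at −0.06 to 0.52 and were not paired. The comparison within same-numbered GFP+ pairs was chosen after seeing the data. Alternatives were array weights, a threshold of 0.1, quantile normalisation, arrays centred on their medians, weakly read probe sets (mean under the median) dropped, unnamed ones added, the trend and the robust option of limma, only the arrays compared, each pool left out, both replicate 4 pools left out, and the pool or replicate number as a fixed or random block. Leaving out both replicate 1 or both replicate 3 pools was chosen after seeing the data. Promoter windows came from RefSeq on GRCm38.p6, and no coordinates are given with the arrays.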

Additional observations from a re-analysis of the deposited data

Results flagged for a closer look

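Of 124 groups of 4 arrays examined, those of 31 members in each of the 4 groups, 14 held an array farther from the rest than Dixon's 95% criterion allows for groups of that size. Chance flags about 1 group in 20. On the vehicle GFP+ array of replicate 3, 7 members stood low: Gstm1 at 13.05, Cyp2g1 at 14.29, Cyp2a5 at 13.48, Cyp2a4 at 10.49, Cyp1a2 at 8.9, and the weakly read Gstm6 at 6.21 and Ugt8a at 4.81. The nearest other vehicle GFP+ array read 14.69 for Gstm1, 15.78 for Cyp2g1, 15.22 for Cyp2a5, 12.23 for Cyp2a4 and 10.03 for Cyp1a2.

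On the vehicle GFP− array of replicate 4, Sult1d1 at 17.17, Sult4a1 at 13.39, Cyp2u1 at 10.37 and Cyp2s1 at 12.14 stood low and Sult1c1 at 12.82 stood high. The nearest other array of that group read 17.65 for Sult1d1, 13.86 for Sult4a1, 11.01 for Cyp2u1, 13.21 for Cyp2s1 and 12.17 for Sult1c1. Gstp1 read 7.71 on the octanone GFP+ array of replicate 4, where the next highest was 7.23, and Ugt2b36 read 6.66 on the octanone GFP− array of replicate 3, where the next highest was 6.15.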

How the results depend on the processing

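Gstp1, Gsta3, Sult1c1, Cyp4f18 and Cyp2u1 kept their direction and call in all 20 alternatives, and Gstp2, Gsto1, Gstt2, Sult1e1, Sult2b1, Sult6b1, Aox4, Ugt2b36 and Ugt8a in all 19 in which they were tested. No member was called for 2-octanone or for the ratio in any alternative. Centring each array on its median put the median difference of all genes at 0.41 in place of 0.13, a shift that every difference shares. It gave 91 members higher, 56 called after 2-octanone, 69 called after vehicle, 38 pathway genes higher, and medians of 0.46 (Cyp), 0.53 (Ugt), −0.01 (Gst), 0.47 (Sult) and 0.49 (Aox), and turned the uncalled Cyp2g1 to 0.17, Cyp2a4 to 0.17, Cyp2a5 to 0.08 and Cyp2f2 to 0.08. Quantile normalisation gave a Ugt median of 0.19 and 16 pathway genes higher. Leaving out weakly read probe sets, which removes most members, gave 4 higher, 6 lower, 3 called after 2-octanone, 4 after vehicle and a Cyp median of −0.11, with no Ugt or Aox member left. A threshold of 0.1 gave 29 higher members, 13 higher pathway genes and 25 calls after 2-octanone.

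With the pool as a fixed replicate block, 22 members were called after 2-octanone and 12 pathway genes higher. With the pool as a random block, 27 members were higher, 26 were called after 2-octanone and 14 pathway genes were higher. Array weights turned Cyp2a4 to 0.02. Without both replicate 4 pools the Ugt median was 0.20, 4 pathway genes were higher and Cyp2a4 was at 0.02. Of the fits chosen after seeing the data, without both replicate 1 pools 3 members and 1 pathway gene were higher. Without both replicate 3 pools 10 members and 1 pathway gene were higher, Cyp2g1 was at 0.08 and Cyp2a4 at 0.04. With single pools left out, higher members ranged from 5 to 17, lower members from 13 to 16, calls after 2-octanone from 7 to 16, calls after vehicle from 13 to 17, and higher pathway genes from 1 to 6. Cyp2g1 then ranged from −0.31 to 0.04 and Cyp2a4 from −0.31 to 0.03. Apart from the shift by centring and the smaller number of genes or arrays, the causes were not tested. Taking every probe set of a member was not run, since each has 1. Apart from the blocked fits for which it is given above, the share of all genes called was not counted in the alternatives. Their counts therefore describe the fits and are not read as results about the members or pathway genes. Weak signal over background limits 104 of the 135 members.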

Other observations

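Several members read above the background bound on most or all arrays differed little between the fractions. Cyp4f13, of the subfamily that hydroxylates leukotrienes and other fatty acids, averaged 10.50 in GFP+ and 10.21 in GFP− cells (0.28 in the fit, limma adjusted p = 0.0611). Gstm4 averaged 10.29 and 10.10 (adjusted p = 0.293), Cyp2d13 10.05 and 9.87 (0.338), Cyp2c23 9.71 and 9.67 (0.889), and Cyp2j6 9.11 and 9.13 (0.917). None of these 5 was called for 2-octanone in either fraction. A p above the threshold does not show that the fractions are alike.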
